A study of Rattus norvegicus with 12 samples.

Results

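The cytochrome P450 genes of families 1 to 3 were followed in rat liver through every probe set whose platform annotation named a Cyp gene of family 1, 2 or 3. The rule found 37 probe sets naming 36 genes, of 31042 probe sets and 14863 gene symbols on the array outside its controls. Of these, 3 named a pair of genes and cannot separate them: Cyp2a2 with Cyp2a1, Cyp2b2 with Cyp2b1, and Cyp2d5 with Cyp2d1. Cyp2d4 and Cyp2j3 each had 2 probe sets. Members of a subfamily are close copies, the probe sequences were not used here, and a signal may therefore include RNA of a near-identical neighbour.

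The livers came from 12 rats, 1 Affymetrix array per animal, in 4 groups of 3. Germ-free Sprague Dawley rats (animals 1, 3 and 4), which carry no microbes, were set against conventional rats of the same strain (animals 6, 7 and 8). Han Wistar rats that drank water with streptomycin and penicillin for 8 days (animals 13, 14 and 15) were set against untreated Han Wistar controls (animals 1, 2 and 3). The protocol puts streptomycin at 4 mg/ml and penicillin at 2 mg/ml, without settling whether these describe a stock or the water that was drunk. The labels number the animals separately and give no sex, age, diet or hour of collection. Strain and experiment go together, so groups were compared within strain and the 2 comparisons only through the difference of their fold changes. The question was which liver transcripts differ in animals without microbes and in animals given antibiotics.

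P450s of families 1 to 3 are haem enzymes of the endoplasmic reticulum that oxidise drugs, plant compounds, steroids, retinoids and fatty acids, with electrons passed on by P450 oxidoreductase and cytochrome b5. Many are induced through receptors: family 1 through the aryl hydrocarbon receptor, subfamily 2B mainly through the constitutive androstane receptor (CAR, gene Nr1i3) and subfamily 3A mainly through the pregnane X receptor (PXR, gene Nr1i2). In rats, several members of 2A, 2C and 3A also differ between the sexes, under the control of growth hormone.

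Values are array signals in arbitrary units, with each array scaled by the authors to a common trimmed mean of about 100. Tests were made with limma on log2(signal + 16) over the 15523 probe sets whose mean signal reached 19.67, the median of all. Adjusted p-values are Benjamini-Hochberg values over all of these, and a probe set was called at an adjusted p under 0.05. The scale is that of log2(signal + 16) for every fold change, which understates changes of dim probe sets, and ± gives the standard error. Of the 37 members, 30 passed the signal filter. Arrays of 1 group correlated at 0.974 to 0.985 across tested probe sets. Hepatocyte markers were bright on every array, from Tat (mean signal 1490.5) to Serpina1 (8108.5), and none of the 5 kidney and 4 lung markers on the array passed the filter.

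In germ-free livers, P450 members were called in both directions. Cyp3a9, Cyp2f4 and Cyp2c23 rose against conventional livers, Cyp2j4, Cyp3a18 and the probe set shared by Cyp2b2 and Cyp2b1 fell, and the other 24 tested members did not pass. These 6 of 30 members (20%) stand beside 12.2% of all tested probe sets called in that comparison, 6.86% higher and 5.39% lower. The median log2 fold change of the members was 0.04, against 0.05 over all probe sets, with a range from -1.47 to 1.19. With each array centred on its median, which shifts the median of all fold changes by -0.11, the split became 2 higher and 5 lower: Cyp2c23 was lost (adjusted p = 0.0697) and Cyp2d4 (0.0482) and the probe set of Cyp2d5 and Cyp2d1 (0.0467) were called lower. Over all probe sets the calls went from 1065 higher and 836 lower to 654 higher and 1407 lower.

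**Figure D1:**
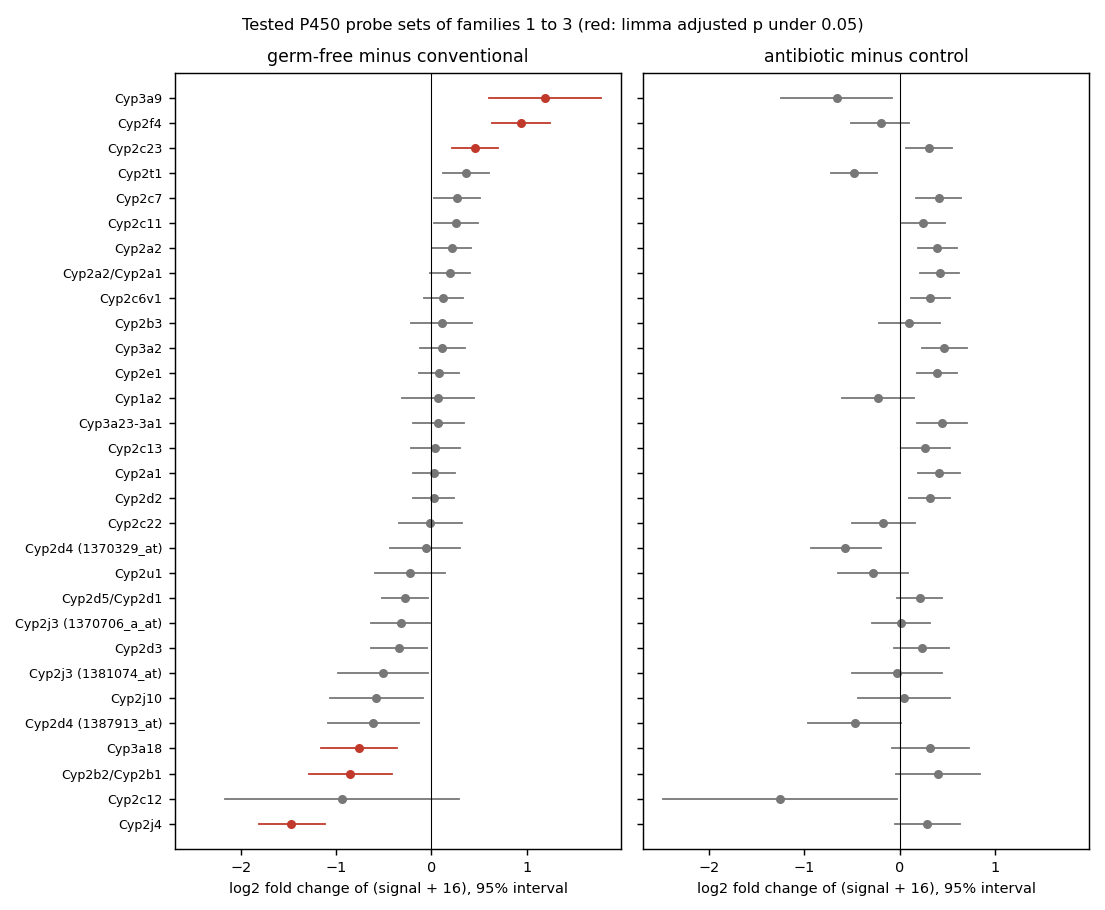
Log2 fold change of (signal + 16) with its 95% interval for the 30 tested P450 probe sets, germ-free minus conventional on the left and antibiotic minus control on the right, ordered by the left panel; red marks a limma adjusted p under 0.05. The left panel holds 6 red points, from Cyp2j4 at -1.47 to Cyp3a9 at 1.19, and the right panel none.

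The largest fall among the 30 tested members was that of Cyp2j4, an epoxygenase of arachidonic acid and other fatty acids that is found in liver and small intestine. Its signal was 603, 424 and 375 in germ-free animals 1, 3 and 4, and 1404, 1260.2 and 1227 in conventional animals 6, 7 and 8. Every germ-free animal lay below every conventional one, by 2.76-fold (log2 -1.47 ± 0.16, 95% interval -1.81 to -1.12, limma adjusted p = 9.66e-05). The Han Wistar controls gave 907, 809.5 and 893, and the antibiotic-treated animals 1315, 952 and 967. Here the treated animals were the higher ones, without overlap, but the log2 fold change of 0.29 did not pass (limma adjusted p = 0.592). The difference between the comparisons was -1.76 ± 0.23 (limma adjusted p = 0.000978). The call in germ-free livers held in all 24 alternative analyses run, and the difference in all 23.

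The other subfamily 2J members, whose genes are neighbours of Cyp2j4 on chromosome 5, did not pass. The probe sets of Cyp2j3, which lies next to Cyp2j4 in the GRCr8 gene table, ranged from 774.8 to 1271.5 and from 169.1 to 387.6 over the 12 animals, with overlapping groups in both comparisons. Cyp2j10 ranged from 12 to 40.4, close to the filter value. With arrays weighted by their quality, both Cyp2j3 probe sets (adjusted p = 0.0425 and 0.0355) and Cyp2j10 (0.0401) were called lower in germ-free livers. Both were also called without conventional animal 6 (Cyp2j3 0.0198 and 0.00944, Cyp2j10 0.0396), whose values for these genes were the lowest of its group.

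Subfamily 2B is the classical target of phenobarbital and of CAR. The probe set naming Cyp2b2 and Cyp2b1 read 635, 844 and 472.5 in germ-free livers and 1309.8, 1185.5 and 984 in conventional livers. Each germ-free value lay below each conventional one (log2 -0.85 ± 0.20, 95% interval -1.29 to -0.41, limma adjusted p = 0.0156), a 1.8-fold fall. Leaving out germ-free animal 4 (adjusted p = 0.0683, log2 -0.64) or conventional animal 6 (0.0534) ended this call. In Han Wistar rats the controls read 509, 502 and 398 and the treated animals 828.5, 557 and 522. The treated animals were again the higher group without overlap (log2 0.40, limma adjusted p = 0.552), with animal 13 the highest. The difference between the comparisons was -1.25 ± 0.29 (limma adjusted p = 0.025) and was lost in 5 of 22 alternatives, with adjusted p-values of up to 0.0599: without germ-free animal 4, conventional animal 6 or 7, control animal 3 or antibiotic animal 13.

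Cyp2b3, another subfamily 2B member, which is known to respond little to phenobarbital, showed no such pattern. Its signal was 4181.5, 5252 and 5682 in germ-free, 4429, 4255 and 5260.2 in conventional, 3692, 3623 and 4228 in control and 4848, 3292.5 and 4369 in antibiotic-treated livers. The groups overlapped in both comparisons, and it passed in none. Cyp2b21 (1.0 to 6.5) and Cyp2b12 (0.4 to 6.0) lay under the filter on every array.

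Subfamily 3A, whose members hydroxylate steroids and many drugs, split in germ-free livers. Cyp3a18 read 3674, 3199 and 2034 in germ-free and 4741, 4904 and 5025 in conventional animals. The conventional values were close together, and all germ-free values lay below them (log2 -0.76 ± 0.19, 95% interval -1.16 to -0.36, limma adjusted p = 0.0178), a 1.69-fold fall. That call ended when germ-free animal 4 (adjusted p = 0.058, log2 -0.51) or conventional animal 7 (0.051) was left out, and with the actin 3' to 5' ratio as a covariate (0.117). Han Wistar controls read 3036, 3487.5 and 4235 and treated animals 5271, 3726 and 4488, which overlapped (log2 0.32, limma adjusted p = 0.62). The difference, -1.08 ± 0.27 (limma adjusted p = 0.0343), was lost in 12 of 23 alternatives. Among them were the actin covariate (0.15), quantile normalization (0.0533), no filter (0.0745) and no variance trend (0.0514). The others left out germ-free animal 3, any conventional animal, control animal 1 or 2, or antibiotic animal 13 or 15, with adjusted p-values of up to 0.0808.

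Cyp3a9, a 3A form reported in rat liver, brain and olfactory tissue, went the other way. It read 849.9, 724 and 577 in germ-free and 174, 469.5 and 331 in conventional animals. All germ-free values exceeded all conventional ones, and conventional animal 6 was the lowest (log2 1.19 ± 0.27, 95% interval 0.6 to 1.78, limma adjusted p = 0.0119), a 2.28-fold rise. In Han Wistar livers the order was reversed: controls read 974.9, 1250.4 and 827 and treated animals 520.0, 613 and 776. The treated animals were all lower, but the fold change did not pass (log2 -0.66 ± 0.27, limma adjusted p = 0.435). The difference between the comparisons, 1.85 ± 0.39 (limma adjusted p = 0.0151), held in all 23 alternatives run, and the call in germ-free livers in all 24.

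Cyp3a2, a 3A form of adult male rats, and Cyp3a23-3a1, a form inducible through PXR, did not pass in either strain. Cyp3a2 read 5825, 6525 and 5281 in germ-free and 5241, 5212.5 and 5810.1 in conventional livers, which overlapped (log2 0.11, limma adjusted p = 0.545). In controls it read 3546, 3410.5 and 4079 and in treated animals 5692, 4518 and 5131. These groups did not overlap (log2 0.47, limma adjusted p = 0.172), and the value was 0.23 after quantile normalization. Cyp3a23-3a1 overlapped between germ-free and conventional livers (log2 0.07, limma adjusted p = 0.758). It too was higher in treated than in control animals without overlap (log2 0.45, limma adjusted p = 0.22), with 0.19 after quantile normalization.

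**Figure D2:**
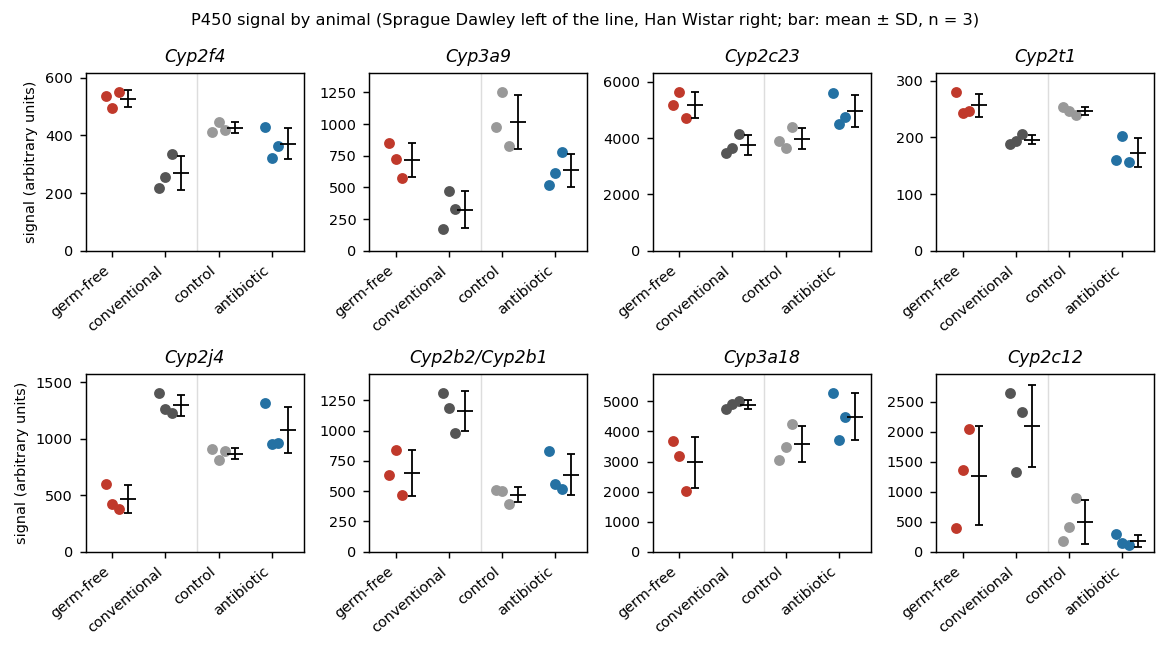
Array signal (arbitrary units, axes from 0) of 8 P450 probe sets in each of the 12 animals, with the mean ± SD of each group of 3 beside its points. Germ-free points lie above conventional points for Cyp2f4, Cyp3a9, Cyp2c23 and Cyp2t1 and below them for Cyp2j4, Cyp2b2/Cyp2b1 and Cyp3a18, while those of Cyp2c12 overlap.

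Cyp2f4, which activates naphthalene and other small aromatic compounds and is best known from lung, rose in germ-free livers. Its signal was 536.5, 494 and 549.5 in germ-free and 218, 257 and 334 in conventional livers. The groups were well apart (log2 0.94 ± 0.14, 95% interval 0.64 to 1.25, limma adjusted p = 0.000902), a 1.92-fold rise. Controls read 410.3, 448 and 420.2 and treated animals 429, 321 and 363, which overlapped (log2 -0.20, limma adjusted p = 0.687). The difference of 1.14 ± 0.20 passed (limma adjusted p = 0.00553), as it did in all 23 alternatives run, and the rise in germ-free livers passed in all 24. None of the 4 lung markers on the array passed the filter, and the source of the Cyp2f4 signal was not tested.

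Cyp2t1, whose gene follows Cyp2f4 on chromosome 1, was not called in either comparison but was called in their difference. It read 279.6, 242.5 and 247 in germ-free and 189, 193 and 205.5 in conventional livers, all higher without microbes (log2 0.36 ± 0.11, limma adjusted p = 0.0522). In Han Wistar rats it read 254, 247 and 239 in controls and 160.1, 202 and 157 in treated animals, all lower with antibiotics (log2 -0.48 ± 0.11, limma adjusted p = 0.172). The difference was 0.84 ± 0.16 (limma adjusted p = 0.00882) and held in all 23 alternatives run. The value in germ-free livers crossed the threshold in 5 of 24 alternatives, with an adjusted p of 0.0355 without antibiotic animal 14.

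Across the 12 members of the Cyp2s1 to Cyp2t1 gene cluster on chromosome 1, the calls were not uniform. In the order of the GRCr8 gene table these are Cyp2s1, Cyp2b1, Cyp2b2, Cyp2b3, Cyp2b21, Cyp2b12, Cyp2g1, Cyp2a3, Cyp2a1, Cyp2a2, Cyp2f4 and Cyp2t1. The shared Cyp2b2 and Cyp2b1 signal fell and that of Cyp2f4 rose in germ-free livers, while Cyp2b3, Cyp2a1 and Cyp2a2 between them did not pass. On chromosome 12, Cyp3a18 lies with Cyp3a2 and Cyp3a23-3a1, and 114 other genes lie between these and Cyp3a9.

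**Figure D3:**
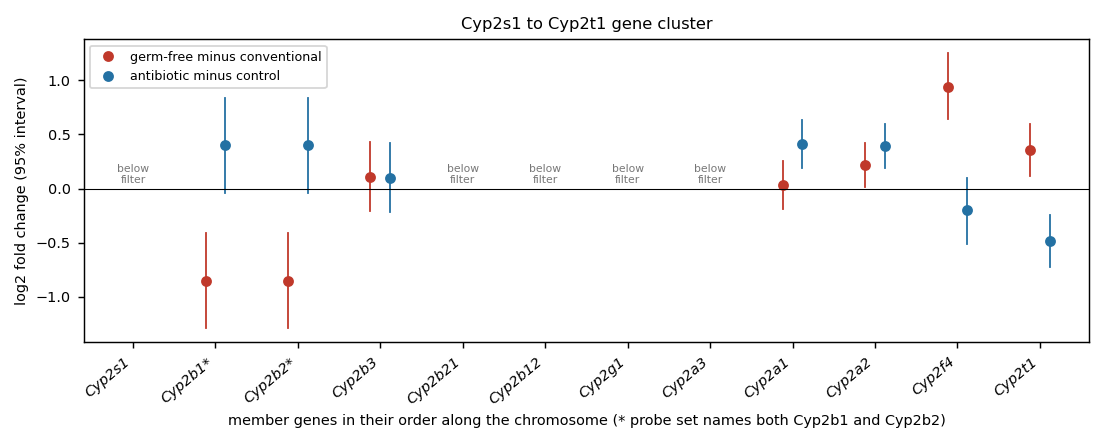
Log2 fold change with its 95% interval for the P450 genes of the Cyp2s1 to Cyp2t1 cluster, in their order along the chromosome, red for germ-free minus conventional and blue for antibiotic minus control. Genes under the signal filter are marked, and the probe set shared by Cyp2b1 and Cyp2b2 is drawn at both.

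Sequence before the start of transcription is shown for the genes of 5 of the 6 probe sets called in germ-free livers (Cyp2c23 is left out), to set their upstream regions side by side, with Cyp2b3 as the subfamily 2B member that was not called. RefSeq windows on GRCr8, from 250 bases before to 50 bases after the annotated start, were matched for 33 of the 36 genes. The stretch of 250 bases before the start is printed 5' to 3', and capitals mark matches on either strand to GCGTG, the core of the aryl hydrocarbon receptor's response element, to TTANGTAA, the D-box read by Dbp, Tef and Hlf, or to TTGCNNAA, a C/EBP-type sequence.
Cyp2j4 promoter, chr5:116323043-116323292, minus strand: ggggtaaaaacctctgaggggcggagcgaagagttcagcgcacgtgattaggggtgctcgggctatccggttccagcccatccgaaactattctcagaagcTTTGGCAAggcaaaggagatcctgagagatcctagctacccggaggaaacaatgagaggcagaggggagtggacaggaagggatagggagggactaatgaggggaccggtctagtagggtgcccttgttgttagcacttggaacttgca
Cyp2b1 promoter, chr1:90645869-90646118, plus strand: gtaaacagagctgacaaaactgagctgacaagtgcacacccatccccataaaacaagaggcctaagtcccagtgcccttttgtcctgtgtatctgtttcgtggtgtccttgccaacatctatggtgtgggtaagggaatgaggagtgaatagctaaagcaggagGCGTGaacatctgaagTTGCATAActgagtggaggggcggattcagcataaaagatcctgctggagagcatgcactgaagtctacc
Cyp2b2 promoter, chr1:90722031-90722280, plus strand: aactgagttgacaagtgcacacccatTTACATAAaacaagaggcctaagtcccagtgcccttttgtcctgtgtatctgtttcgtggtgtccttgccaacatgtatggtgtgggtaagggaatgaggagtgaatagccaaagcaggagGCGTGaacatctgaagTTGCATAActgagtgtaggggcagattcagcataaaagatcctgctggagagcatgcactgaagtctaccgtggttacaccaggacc
Cyp2b3 promoter, chr1:90780242-90780491, plus strand: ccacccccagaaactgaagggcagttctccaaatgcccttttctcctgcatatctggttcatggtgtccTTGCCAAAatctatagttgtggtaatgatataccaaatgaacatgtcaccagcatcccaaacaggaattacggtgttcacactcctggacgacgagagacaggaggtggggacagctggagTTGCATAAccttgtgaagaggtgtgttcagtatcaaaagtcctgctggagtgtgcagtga
Cyp3a18 promoter, chr12:13994062-13994311, plus strand: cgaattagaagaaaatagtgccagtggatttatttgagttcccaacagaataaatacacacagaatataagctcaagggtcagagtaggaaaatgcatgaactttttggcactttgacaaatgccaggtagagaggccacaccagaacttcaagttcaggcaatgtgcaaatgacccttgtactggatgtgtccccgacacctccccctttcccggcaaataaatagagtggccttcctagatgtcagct
Cyp2f4 promoter, chr1:91543518-91543767, plus strand: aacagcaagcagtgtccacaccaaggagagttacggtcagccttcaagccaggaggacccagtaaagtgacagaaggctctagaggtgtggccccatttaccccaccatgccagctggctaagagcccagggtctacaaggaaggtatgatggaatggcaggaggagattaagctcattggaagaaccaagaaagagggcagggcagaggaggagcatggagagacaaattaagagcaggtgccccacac
Cyp3a9 promoter, chr12:21960161-21960410, minus strand: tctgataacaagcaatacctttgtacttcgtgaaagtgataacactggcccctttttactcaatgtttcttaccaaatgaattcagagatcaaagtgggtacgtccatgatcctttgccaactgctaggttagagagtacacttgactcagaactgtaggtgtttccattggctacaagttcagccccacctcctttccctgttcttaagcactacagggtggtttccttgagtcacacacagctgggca

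The Cyp2b1 and Cyp2b2 windows were 86.8% identical in a global alignment, with 8 mismatched and 34 gap columns. Gap columns count as differences here. To the Cyp2b3 window the identity was 55.9% for Cyp2b1 and 55.3% for Cyp2b2. Cyp2j4 and Cyp2j3 shared 51.1%, Cyp3a18 and Cyp3a9 54.3%, and Cyp2f4 and Cyp2t1 50.3%. These lower values, and those to Cyp2b3, came with 100 to 116 gap columns. No unrelated windows were aligned, so they cannot be read as likeness. The match TTGCATAA stood 70, 87 and 60 bases before the start in Cyp2b1, Cyp2b2 and Cyp2b3. TTGCNNAA was found in 13 of the 33 member windows and in 10.6% of all 33469 windows of 300 bases, GCGTG in 5 and in 29.7%, and TTANGTAA in 2 (Cyp2b2 and Cyp2g1) and in 2.24%. The 13 windows with TTGCNNAA include those of Cyp2b1, Cyp2b2, Cyp2b3, Cyp2b21 and Cyp2b12. Members of 1 subfamily are close copies, so these windows are not independent and the counts do not measure an enrichment. The direct repeats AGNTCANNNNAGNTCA and AGNTCANAGNTCA, forms bound by nuclear receptors with their partner RXR, were in none of the member windows and in 0.06% and 0.15% of all. Repeats this rare are missing from most sets of 33 windows, so their absence does not set the members apart. Sequence further upstream was not searched. These are letter matches in short windows and say nothing of binding.

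Subfamily 2C held 1 called member. Cyp2c23, an arachidonic acid epoxygenase also prominent in kidney, read 5173, 5626 and 4708 in germ-free and 3470.0, 3631 and 4136 in conventional livers. All germ-free values were higher (log2 0.46 ± 0.11, 95% interval 0.22 to 0.7, limma adjusted p = 0.0153), a 1.38-fold rise. Leaving out germ-free animal 3 (adjusted p = 0.0782) or conventional animal 6 (0.0532) or 7 (0.0533) ended the call, as did fitting with the actin ratio as a covariate (0.0978) and median centring (0.0697). Controls read 3897, 3648 and 4399 and treated animals 5604, 4501 and 4757, higher without overlap in this strain too (log2 0.31, limma adjusted p = 0.355). The difference between the comparisons was 0.15 and did not pass (limma adjusted p = 0.649). None of the 5 kidney markers passed the filter, and the source of the Cyp2c23 signal was not tested.

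Cyp2c7, a retinoid-oxidising form, read 7029, 7749 and 8274 in germ-free, 5934, 6110.1 and 7095 in conventional, 4422, 4363 and 5076 in control and 7003, 5491 and 5937.5 in treated livers. Germ-free and conventional animals overlapped, treated and control animals did not, and neither comparison passed. The male-predominant Cyp2c11, a testosterone hydroxylase, ranged from 5212 to 5853.5 in germ-free, 4119.8 to 4963 in conventional, 3730.0 to 4212.5 in control and 4115 to 5360.5 in treated livers and passed in neither comparison. Cyp2c6v1, Cyp2c13 and Cyp2c22 also did not pass.

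Cyp2c12, which is known as a female-predominant hydroxylase of steroid sulfates, varied widely between animals of 1 group. It read 404, 1364 and 2046 in germ-free, 2644, 1334 and 2328 in conventional, 187, 409.9 and 902 in control and 290.1, 142 and 104.5 in treated livers. Its residual SD of 0.92 on the log2 scale exceeded that of 99.8% of tested probe sets. Groups overlapped in both comparisons, and the intervals were wide: log2 -0.94 (95% interval -2.17 to 0.29, limma adjusted p = 0.31) in germ-free and -1.26 (-2.48 to -0.03, 0.494) in treated livers. The sex of the animals is not in the labels, and its part in this spread was not tested.

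The remaining subfamilies did not pass in either comparison. Cyp1a2, which oxidises caffeine and aromatic amines and is induced through the aryl hydrocarbon receptor, read 5134, 3640.3 and 3281 in germ-free, 3451, 3803 and 4029 in conventional, 3933, 3060.0 and 3636 in control and 2735, 3945.5 and 2502 in treated livers. Both pairs of groups overlapped, with log2 0.07 (95% interval -0.31 to 0.45, limma adjusted p = 0.835) in germ-free and -0.23 (-0.61 to 0.15, 0.722) in treated animals. Cyp2e1, the ethanol-inducible form, read 7812, 8439 and 7784 in germ-free and 7539, 7153 and 8036 in conventional animals (log2 0.08, 95% interval -0.13 to 0.29, limma adjusted p = 0.629). In controls it read 4801, 4797 and 5602 and in treated animals 7364, 5981 and 6621, groups that did not overlap (log2 0.39, limma adjusted p = 0.175).

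In subfamily 2A, which includes the testosterone hydroxylases Cyp2a1 and Cyp2a2, the probe set naming both read 4204, 4053 and 4429 in germ-free, 3694, 3276 and 4125 in conventional, 2735, 2799.5 and 2863 in control and 4038, 3649.9 and 3542 in treated livers. All 3 tested 2A probe sets were higher in treated than in control animals without overlap and overlapped between germ-free and conventional animals. Cyp2d2, of the debrisoquine-oxidising subfamily 2D, read 5771, 6518 and 6346 in germ-free, 6046, 6035 and 6199 in conventional, 4087, 4071 and 4719.7 in control and 5888, 4649 and 5579 in treated livers. Its groups overlapped in both comparisons. The probe set of Cyp2d5 and Cyp2d1 read 3754, 3684 and 3778 in germ-free and 4319, 4486 and 4804 in conventional livers, lower without overlap, and overlapped between treated and control animals. It passed in neither comparison, nor in the difference, where leaving out antibiotic animal 14 made it a call (adjusted p = 0.0292). Cyp2d3 read 4089, 3119 and 2711 in germ-free and 4058, 3875.5 and 4491 in conventional livers, which overlapped through germ-free animal 1. It did not pass, but without that animal it was called lower in germ-free livers (limma adjusted p = 0.0134) and in the difference (0.0177), as it was in the difference with array weights (0.0358). The probe sets of Cyp2d4 ranged from 172.8 to 306.7 and from 13.1 to 105.0. The first was lower in treated than in control animals without overlap, the second was lower in germ-free than in conventional animals without overlap, and neither passed. Cyp2u1, a fatty acid hydroxylase, ranged from 29.6 to 61.6 with overlapping groups.

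The 7 members under the filter were Cyp1a1 (0.8 to 8.3), Cyp1b1 (10.2 to 27.2), Cyp2a3 (0.4 to 10.2), Cyp2b12, Cyp2b21, Cyp2g1 (2.3 to 14.8) and Cyp2s1 (9.9 to 21.2). Several of these are chiefly forms of other tissues or, like Cyp1a1 and Cyp1b1, low in liver until induced. With no filter, none of the 7 was called in any comparison. Cyp1a1 read 8.3, 2.0 and 7.8 in germ-free and 1.4, 1.6 and 1.4 in conventional livers, all far under the filter value.

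In livers of antibiotic-treated rats no P450 member passed, and the lowest limma adjusted p was 0.168. Over all probe sets 0.0193% (3 of 15523) were called. Without adjustment, 16 of 30 members had a p under 0.05 in limma, beside 9.97% of all probe sets. Treated and control animals did not overlap for 14 members, 11 higher and 3 lower (46.7%), beside 18.4% of all tested probe sets (9.57% higher, 8.78% lower). For germ-free and conventional animals the groups of 10 members did not overlap, 5 higher and 5 lower (33.3%), beside 29.1% (16.9% higher, 12.1% lower). The median log2 fold change of the members was 0.24 in treated animals, against 0.01 over all probe sets.

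Most of the higher values in treated animals belonged to very bright probe sets, and other probe sets of that brightness were higher as well. Of the 30 members, 17 had a mean signal of at least 3000, a limit chosen after the values were seen. Their median was 0.32, with 15 of 17 above 0. The 262 other probe sets of that brightness had a median of 0.27, and 95% of them were above 0. After quantile normalization, which gives every array the same distribution of signals, the medians were 0.01 and 0, and that of all 30 members was 0. The 17 bright members then ranged from -0.46 (Cyp1a2) to 0.25, with 11 above 0. Non-overlap upwards was found for 8 of the 17 bright members and 55.7% of the bright others. The signal passed by the brightest 0.5% of probe sets was 3352 to 3760 in controls and 3734 to 4415 in treated animals, and it was highest in animal 13, whose P450 values were often the highest of its group. Animal 13 was followed by 15 and then 14 for 12 of the 17 bright members and 70.6% of the bright others. The cause of this shift at the top of the scale was not tested.

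**Figure D4:**
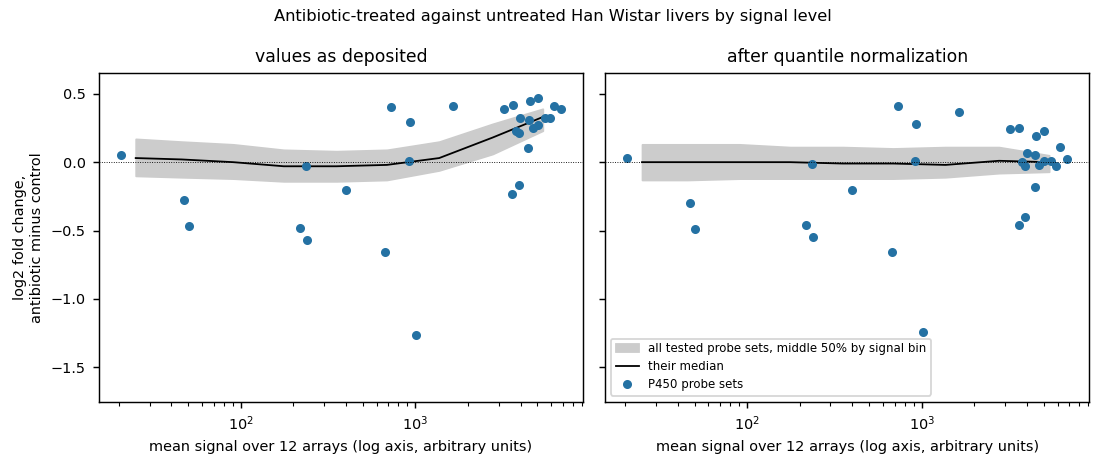
Log2 fold change, antibiotic minus control, against the mean signal over 12 arrays (log axis) for the 30 tested P450 probe sets (points), with the median and the middle 50% of all tested probe sets by signal bin. With the deposited values most of the bright end lies above 0, for P450s and other probe sets alike. After quantile normalization its median lies near 0, with bright P450s on both sides.

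In germ-free and conventional livers this top-end signal was 4253 to 4777 and 4153 to 4488. The bright members had a median log2 fold change of 0.08 and the bright others of 0.14, or -0.03 and 0.01 after quantile normalization. All 6 members called in germ-free livers were called after quantile normalization too. The summed signal of the P450s, taking the brightest probe set of each of 32 genes, was 1.56 to 1.67% of the array total in germ-free, 1.57 to 1.68% in conventional, 1.29 to 1.44% in control and 1.4 to 1.61% in treated livers.

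The difference between the comparisons called 6 members: Cyp3a9, Cyp2f4 and Cyp2t1 in the direction of higher in germ-free livers, and Cyp2j4, Cyp2b2 with Cyp2b1, and Cyp3a18 in the direction of lower. That is 20% of the 30 tested, beside 5.03% of all probe sets (2.47% higher, 2.56% lower). Strain, experiment and kind of treatment cannot be told apart in this difference.

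Among 23 tested regulators of P450 genes, 5 rose in germ-free livers, 1 fell and 17 did not pass (median log2 0.39, against 0.05 over all probe sets). Of all tested probe sets 6.86% were called higher and 5.39% lower. This gene list and those below were chosen with earlier results of these data known. Nr1i3, which encodes CAR, fell from 415 ± 116 in conventional to 136 ± 60.6 in germ-free livers (SD, n = 3; log2 -1.55 ± 0.26, limma adjusted p = 0.00169). Nr1i2, which encodes PXR, read 427 ± 37.1 and 368 ± 22.7 (log2 0.20 ± 0.11, limma adjusted p = 0.262). The glucocorticoid receptor gene Nr3c1 rose by log2 0.91 ± 0.14 and Dbp, a clock-controlled transcription factor of liver genes, by 1.81 ± 0.23 (limma adjusted p = 0.00103 and 0.000298). Tef, Rxra and Bcl6 were the others called higher. Their calls ended on leaving out germ-free animal 3 (limma adjusted p = 0.0586, 0.111 and 0.0837), and for some of them germ-free animal 4 (Rxra 0.117, Bcl6 0.0574), conventional animal 6 (Rxra 0.11, Bcl6 0.0527) or conventional animal 7 (Tef 0.0544, Rxra 0.105). The actin covariate ended those of Tef (0.0998) and Rxra (0.145), and a robust prior (0.0732) and array weights (0.0543) that of Bcl6. Rxra was also lost with quantile normalization (0.0641), median centring (0.079), no filter (0.0612) and a fit on the comparison's own 6 arrays (0.0835). No regulator was called in treated livers. Bcl6 read 620 ± 194 in germ-free, 184 ± 181 in conventional, 373 ± 65.2 in control and 62.3 ± 29 in treated livers. It was thus lower with antibiotics without a call (log2 -2.38 ± 0.52, limma adjusted p = 0.168). In the difference between the comparisons 4 of 23 regulators were called higher and 1 lower, beside 2.47% and 2.56% of all tested probe sets. Bcl6 was among the higher ones (4.45 ± 0.74, limma adjusted p = 0.00403). Nr1i3 was the lower one (-1.36 ± 0.36, limma adjusted p = 0.0472). Its call ended with an offset of 1 (0.0556), no filter (0.0906), no variance trend (0.0603), a robust prior (0.0655) and the actin covariate (0.278). On removing 1 rat, it held only without number 1 of the germ-free (0.0119) or number 6 of the conventional group (0.021). Every other removal gave 0.0573 to 0.0999.

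Of 12 tested genes that CAR and PXR are known to control outside the P450s, 7 fell in germ-free livers, 5 did not pass and none rose, with a median of -0.67. Over all tested probe sets 5.39% were called lower and 6.86% higher, with a median of 0.05. As the list was chosen with earlier results known, its count is not independent support. The retinal dehydrogenase Aldh1a1 fell from 2150 ± 341 to 347.5 ± 109 (log2 -2.61 ± 0.31, limma adjusted p = 0.000169). The carboxylesterase Ces2c fell by 1.62 ± 0.23 on the log2 scale (limma adjusted p = 0.000579) and the flavin monooxygenase Fmo5 by 1.67 ± 0.32 (0.0044). Ephx1, Abcb1a, Slco1a4 and Por were the other 4. The call of Slco1a4 ended on leaving out germ-free animal 3 or 4, conventional animal 7 or 8, control animal 3 or antibiotic animal 15 (adjusted p of 0.0503 to 0.159). It also ended with quantile normalization (0.0617), no filter (0.0801), no variance trend (0.0543) and a robust prior (0.071). With the actin 3' to 5' ratio as a covariate, 3 of the 7 calls ended: Slco1a4 (0.308), Abcb1a (0.066) and Por (0.0942). Of 5 tested aryl hydrocarbon receptor genes none passed, with a median of -0.16. Ahr itself read 37.5 ± 7.55 in germ-free and 60 ± 18.2 in conventional animals (log2 -0.49, limma adjusted p = 0.146).

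Among 16 tested genes of electron supply and haem metabolism, 3 fell in germ-free livers and 13 did not pass (median -0.05). This and the later counts of the paragraph stand beside 5.39% lower and 6.86% higher of all tested probe sets (median 0.05). Por, the P450 oxidoreductase, fell from 2040 ± 174 to 1456 ± 156 (log2 -0.48 ± 0.12, limma adjusted p = 0.0214), which ended on leaving out germ-free animal 3 (0.0836) or 4 (0.0803) or conventional animal 6 (0.0685) and with the actin covariate (0.0942). Biliverdin reductase Blvrb fell by 0.97 ± 0.17 on the log2 scale (limma adjusted p = 0.00284), and ferrochelatase, Fech, was the other, with an adjusted p of 0.0587 on leaving out germ-free animal 3 and 0.0509 on leaving out conventional animal 8, and of 0.123 with the actin covariate. Of 13 tested other microsomal and related oxidation enzymes, 6 fell, 1 rose and 6 did not pass (median -0.67). This list shares Aldh1a1, Ces2c, Fmo5 and Ephx1 with the CAR and PXR list, and the carboxylesterases Ces1d (log2 -0.94 ± 0.15) and Ces1e (-0.67 ± 0.10) were the other 2 that fell. The P450s of families 4 and above had 1 of 20 tested probe sets called higher and 8 lower, with a median of -0.26.

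**Figure D5:**
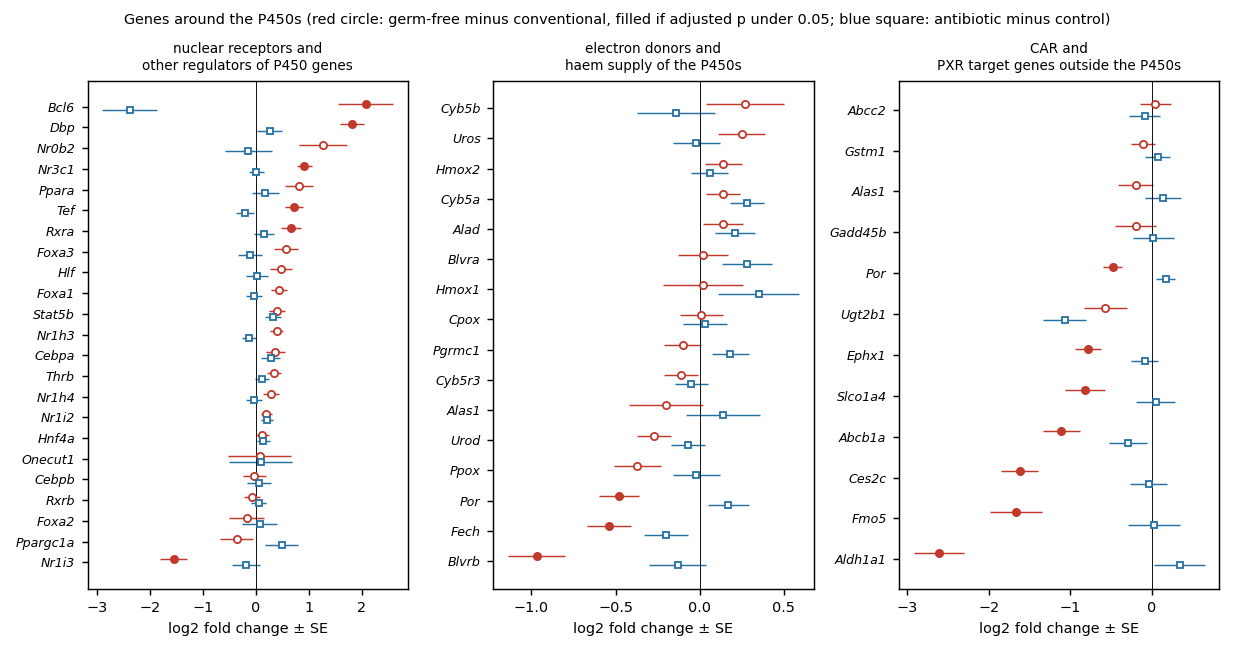
Log2 fold change ± SE of genes that regulate P450s, supply their electrons and haem, or share their receptors, with germ-free minus conventional as red circles, filled where the limma adjusted p was under 0.05, and antibiotic minus control as blue squares. Filled circles lie on the right for 5 regulators and on the left for Nr1i3, 3 haem or electron supply genes and 7 CAR or PXR target genes, and no blue comparison passed.

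Markers of liver cell types also differed between germ-free and conventional livers, and none was called in treated livers. Their counts stand beside 6.86% higher and 5.39% lower of all tested probe sets, with a median of 0.05. Of 9 hepatocyte markers 3 rose in germ-free livers and 6 did not pass. P450s of these families are mostly expressed around the central vein. Of 9 tested pericentral markers that are not P450s, 2 fell (Lect2, and Aldh1a1, which the CAR and PXR and the oxidation lists also hold), 7 did not pass and their median was -0.11, with a summed signal of 14572 to 16649 in germ-free and 15636 to 17364 in conventional livers. The brightest gene of that sum was Rnase4 (mean signal 6203.6), which did not pass. Its mean was 7684 in germ-free and 6485 in conventional livers, so the sum does not stand for the 2 that fell. Of 11 periportal markers 5 rose (median 0.48), with a sum of 39574 to 46141 against 28283 to 35902. Of 8 endothelial markers 6 rose (median 0.86), with a sum of 1409.8 to 1939.8 against 761 to 948. Macrophage markers (1 of 9 lower, sum 1976 to 2687 against 2637 to 3727), stellate cell markers (0 of 11 called, 2129 to 2504 against 2349.7 to 2852) and bile duct markers (1 of 5 lower, 1584 to 1870.5 against 2296 to 2663) are given for comparison. Most of the bile duct sum came from Krt18 (mean signal 1313), the 1 called lower, and Krt8 (776.2), so it does not stand for the other genes of that list. Epcam (mean 183.3 in germ-free and 176.2 in conventional livers), Krt19, Spp1 and Krt8 did not pass. Lymphocyte and intestinal markers had 2 and 1 tested genes and none called. In such bulk tissue fewer cells of a type and less RNA per cell cannot be told apart, and the part of cell makeup in the P450 values was not tested. The actin 3' to 5' ratio, a sign of RNA integrity, was 4.39 ± 0.762 in germ-free and 5.37 ± 0.839 in conventional livers (exact permutation p = 0.2, smallest possible 0.1). In control and treated livers it was 2.55 ± 0.123 and 2.73 ± 0.131 (exact permutation p = 0.2). Sprague Dawley arrays, at 3.62 or more, all lay above Han Wistar arrays, at 2.87 or less. By the actin ratio RNA integrity therefore goes with strain and experiment. The GAPDH 3' to 5' ratio overlapped between the strains, reaching down to 1.3 in germ-free animal 4 and up to 1.49 in antibiotic animal 15. A gap between strains alone cancels in the difference between the comparisons, where the gaps within each strain remain. With the actin ratio as a covariate 4 members kept their call in germ-free livers.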

How the data were processed

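RNA was extracted from 12 rat livers (4 groups of 3) on RNeasy columns, and 5 ug of it was biotin-labelled, per the labels' protocols. The deposited signal intensity is linear, with 1 value per probe set and array. MAS5 is named in the submitters' processing notes, with no version. Trimmed means (2% off each end) lay between 100.0 and 100.1 on all arrays, so no rescaling was applied. The table gives no detection or saturation marks, and neither was assessed.

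Leaving out 57 controls gave 31042 probe sets. The platform annotation names 1 gene for 20826 of them, several for 436 and none for 9780. Current GRCr8 symbols replaced these by gene identifier (20758) or accession (2), and 66 stayed as annotated. The tests used limma 3.58.1 (R 4.3.3), with 1 mean per group over all 12 arrays, lmFit, and a trended eBayes prior (8 residual and 5.96 prior degrees of freedom). P-values are two-sided. The number of arrays limits the precision: log2 fold changes had a median standard error of 0.152. The p-values measure the spread between these animals only. For genes outside the members, the brightest passing probe set was used. The fit was tested on simulated data.

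The members and gene lists were chosen with earlier results of these data known. Named with every animal's value were members that passed and the brightest of each subfamily, except Cyp1b1, Cyp2g1, Cyp2s1 and Cyp2u1, given as ranges. From the lists up to 4 passing genes were named by smallest p, with Nr1i2, Nr1i3, Ahr and Por always. Further members and list genes were named after their values were seen. Alternatives changed the offset, the filter, the normalization, the arrays in the fit, the variance model, the probe sets tested, the actin ratio as a covariate, and each animal in turn. Promoter windows come from RefSeq and were aligned with Biopython 1.88. Gene coordinates are those of the gene table, since no build goes with the array values.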

Additional observations from a re-analysis of the deposited data

Results flagged for a closer look

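For 6 P450 members the response in germ-free livers differed from that in antibiotic-treated livers by the limma test of the difference itself, (germ-free minus conventional) minus (antibiotic minus control). The difference was 0.84 on the log2 scale for Cyp2t1, 1.14 for Cyp2f4, 1.85 for Cyp3a9, -1.25 for the probe set of Cyp2b2 and Cyp2b1, -1.76 for Cyp2j4 and -1.08 for Cyp3a18. For Cyp2t1 and Cyp3a9 the groups did not overlap in either comparison, and the direction was opposite in the 2 strains. Cyp2t1 passed in neither comparison alone. For Cyp2j4 and the probe set of Cyp2b2 and Cyp2b1, too, both comparisons had groups that did not overlap, lower without microbes and higher with antibiotics, and the antibiotic values did not pass. Strain, experiment and treatment cannot be told apart in these differences.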

How the results depend on the processing

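No paired analysis was possible because the groups compared share no animal numbers (1, 3 and 4 against 6, 7 and 8, and 1, 2 and 3 against 13, 14 and 15). The direction of every called member was kept in all alternatives run. Leaving out 1 animal gave 4 to 7 called members in germ-free livers, 0 in treated livers and 4 to 7 in the difference. Over all probe sets it gave 1006 to 2028 calls (lowest without germ-free animal 3), 1 to 9 (1 without control animal 2, 9 without control animal 1) and 435 to 850 (lowest without control animal 2). Array weights called 11 members in germ-free livers (4 higher, 7 lower), adding Cyp2t1, Cyp2j10, Cyp2d4 and both Cyp2j3 probe sets. Of these, Cyp2j10 passed the filter only through its conventional values. Over all probe sets array weights called 2547 in germ-free livers, 25 in treated livers and 1229 in the difference. With the actin covariate 855 probe sets were called in germ-free livers and 300 in the difference. With 1 probe set per gene, which tests fewer rows, 1226 were called in germ-free livers, and with no filter 496 in the difference. In treated livers the 75th percentile filter and a fit on the comparison's own 6 arrays gave 1 each. Quantile normalization changed the sign of several uncalled members: positive values went from 17 to 10 of 30 in germ-free and from 20 to 16 in treated livers. Among the uncalled members followed through every alternative (Cyp1a2, Cyp2e1, Cyp3a2, Cyp2c12), values changed sign for Cyp1a2 in germ-free livers (-0.04 with median centring, -0.01 with array weights, and -0.12 to 0.20 on leaving out 1 animal, negative without germ-free animal 1), Cyp2e1 (-0.10 after quantile normalization, -0.03 with median centring), Cyp3a2 (-0.02 after quantile normalization) and the difference for Cyp2c12 (-0.70 with the actin covariate and -0.23 to 0.99 on leaving out 1 animal, with -0.16 without germ-free animal 4 and -0.23 without control animal 3). The cause of these changes was not tested. Dim members are limited by their signal: 7 lay under the filter.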
